A study of Sus scrofa with 2 samples.

Results

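The 407 stretches described here are bins of 100 kb on the autosomes in which DNA methylation of back muscle was at least 3 percentage points higher in a low-altitude than in a high-altitude Tibetan pig. The study sampled longissimus dorsi, the long muscle of the back, from female Tibetan pigs, and whole-genome bisulfite sequencing was run on 1 pig of each group. The high-altitude or highland pig was free-ranging in the Tibetan highland, at 4000 m on average. The low-altitude or lowland pig was kept under experimental conditions on ordinary daily feed in the lowland of the Chengdu plain (500 m on average), and came from Tibetan pigs that had been raised in the lowland for generations. Age is not stated in the labels. Altitude, feeding, housing, descent, the individual animal and the library therefore cannot be told apart, and no value below has a replicate error.

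Bins were chosen from the difference itself. Cytosines listed in both libraries with at most 60 reads in each were used, and the level of a cytosine was its share of methylated reads. A cytosine is listed only with a methylated call, so those unmethylated in either pig do not enter the level of a bin. The mean site level of a bin was compared where the bin held at least 150 such cytosines, which was the case in 18612 of 24404 bins with any. Of these 18612 bins, 407 (2.19%) were higher by 3 points or more in the low-altitude pig and form the set described here, 40.7 Mb in all, while 2658 (14.3%) were lower by 3 points or more. The levels that chose the bins are given as a description, without a test.

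In mammals most CpG dinucleotides outside regulatory elements are methylated by DNA methyltransferases, and the maintenance enzyme DNMT1 copies the pattern after replication. Methylation is kept low at active promoters and enhancers. Some tissues and cultured cells also carry long stretches of lower and more variable methylation, known as partially methylated domains, which tend to be poor in genes and to replicate late. Muscle fibres hold many nuclei that no longer divide, and muscle tissue also holds satellite cells, fibroblasts, vessels and fat. In bulk tissue, a shift within cells and a shift in the proportions of cell types cannot be told apart. The tissue label was not checked against marker genes, because gene positions on the assembly of these files were not used here, and bins are named by chromosome and position only.

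The selected bins were on the whole methylated in most reads of both pigs. Their level had a median of 68.5% in the high-altitude pig (range 31.0 to 85.1%) and 72.8% in the low-altitude pig (39.2 to 88.6%). Over all 18612 bins the medians were 74.98% and 73.9%. The difference within the set had a median of 3.81 points, with quartiles of 3.33 and 4.76 points and a maximum of 13.4 points, against a median of −1.04 points over all bins. Most members thus lay close to the threshold, and 84 of them differed by 5 points or more. The 5 members nearest above the threshold differed by 3.01 to 3.02 points, and the 5 bins nearest below it by 2.99 points or slightly more, so that no gap separated members from other bins.

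**Figure D1:**
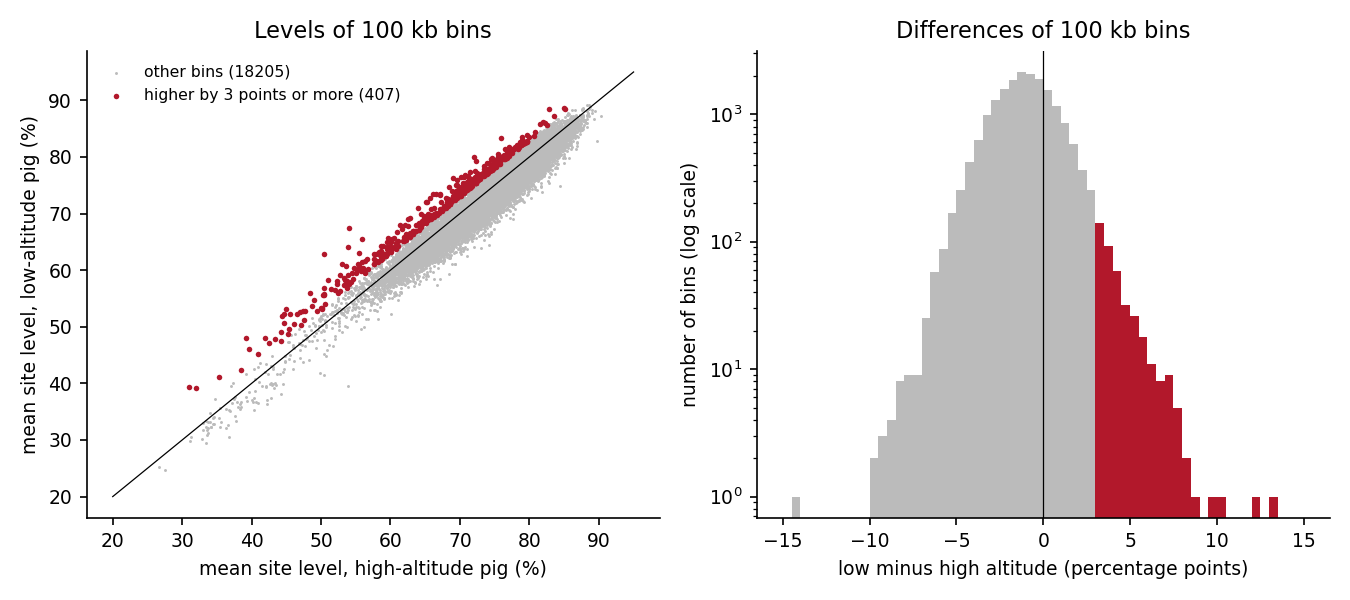
Mean site level of each 100 kb bin in the high-altitude (x axis, %) and the low-altitude pig (y axis, %), with the line of equal levels, and the distribution of the difference in percentage points with the number of bins on a log scale. The 407 selected bins (red) run on from the other 18205 bins (grey) without a gap at 3 points, and few differ by more than 8 points.

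In the selected bins more cytosines were higher than lower in the low-altitude pig. Of 109018 cytosines in the set, 52.8% were higher in the low-altitude pig, 39.0% lower and 8.21% equal. In all tested bins these shares were 42.8%, 47.3% and 9.87%. Weakly methylated cytosines were fewer and strongly methylated ones more frequent in the low-altitude pig. Cytosines under 40% made up 16.9% of the set in the highland and 11.6% in the lowland pig, whereas those at 80% or more made up 40.4% and 46.2%. The share between 40 and 80% was 42.8% and 42.3%. Fully methylated cytosines, with no unmethylated read, were 13.6% and 16.2%.

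Within the selected bins, most pieces of 10 kb were higher in the low-altitude pig. Members were divided into pieces of 10 kb, and pieces with at least 10 shared cytosines were compared. Of 3298 such pieces in the set, 2697 (81.8%) were higher in the low-altitude pig, against 39.3% of 158390 pieces in the other bins. In 87 of the 407 members every piece was higher. When the piece that contributed most was left out of each member, the difference was still above 0 in 406 members, with a median of 2.86 points, and 183 members remained at 3 points or more. The share of higher pieces and the difference without the top piece come from the values that chose the bins. Both are raised by that choice and are no independent measure of how widely a gain was spread.

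The precision of a bin depended on how many cytosines it held. The SE of a member's difference, taken over its cytosines, had a median of 1.39 points. The members' differences, each divided by its own SE, had a median of 2.92. Cytosines on the same fragments are not independent, and these SEs are too small. Of the 407 members, 181 (44.5%) had a difference of 3 SE or more and 20 had 5 SE or more. Members held a median of 247 shared cytosines, against 305 over all bins. Among bins with 150 to 199 cytosines 4.23% were members, and the share was 2.55% at 200 to 299, 1.54% at 300 to 399 and 1.06% at 400 or more. The share of bins lower by 3 points also fell along these classes, from 17.6% to 10.2%. How many members the counting error of thinly covered bins added was not tested.

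Bins of low methylation were more often members. Bins were grouped by the mean of both pigs' levels. Of 169 bins under 50%, 24 (14.2%) were members, and of 590 bins at 50 to 60%, 59 (10%) were. The share fell to 2.51% at 60 to 70%, 1.77% at 70 to 80% and 0.996% at 80% or more. Bins lower by 3 points did not show this order, with 20.7%, 14.4%, 18.9%, 14.5% and 6.72% in the same classes. The members with a mean level under 60% were 83 of 407 (20.4%), against 3.71% of the bins outside the set. The median SE of a bin was 1.28, 1.40, 1.31, 1.20 and 1.04 points in these 5 classes. The SD of the difference over bins was 3.48 points under 50% and 1.56 points at 80% or more, so that bins of low level spread more widely, and their median difference was −0.932 points under 50% and −0.633 points at 50 to 60%. The order was the same at like numbers of cytosines. With 300 or more cytosines 6.76% of 207 bins under 60% and 1.10% of 7547 bins at 70% or more were members.

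The 83 members of low level had the larger median difference, a value taken from the differences that chose the bins. Differences also spread more widely among bins of low level, and the part of that spread in the larger median was not tested. Their median level was 52.0% in the highland and 56.8% in the lowland pig, with a median difference of 4.84 points, against 3.69 points in the 215 members at 70% or more. The low-level members also lay side by side more often, with 33 of 83 (39.8%) next to another member, against 22 of 215 (10.2%) of the highly methylated members. Bins of low level were more often members to begin with. How often other bins of like level lay next to a member was not measured, so this is not read as a trait of the members.

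Members occurred near each other along the chromosomes. Of the 407, 81 (19.9%) had a member in an adjacent bin, against 509 of the 18205 other bins (2.80%). Another member lay within 1 Mb of 215 members (52.8%), against 4035 of the other bins (22.2%). Of the tested bins directly before a member 47 of 312 (15.1%) were members, and of those directly after it 47 of 304 (15.5%), against 2.19% of all bins. At 1 Mb on either side the share was 5.41% and 5.44%, and at 2 Mb it was 2.34% and 2.28%. Neighbouring bins that did not reach the threshold were on average near equal in the 2 pigs, whereas bins outside the set were on average lower in the low-altitude pig. The mean difference of these neighbours was 0.057 points before and 0.048 points after a member, against −1.15 points over all 18205 bins outside the set. Bins lower by 3 points were rare there, at 3.21% before and 3.29% after a member, against 14.3% of all bins. A likeness of neighbours was not particular to members, as the differences of adjacent bins had a correlation of 0.314 over all tested bins.

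**Figure D2:**
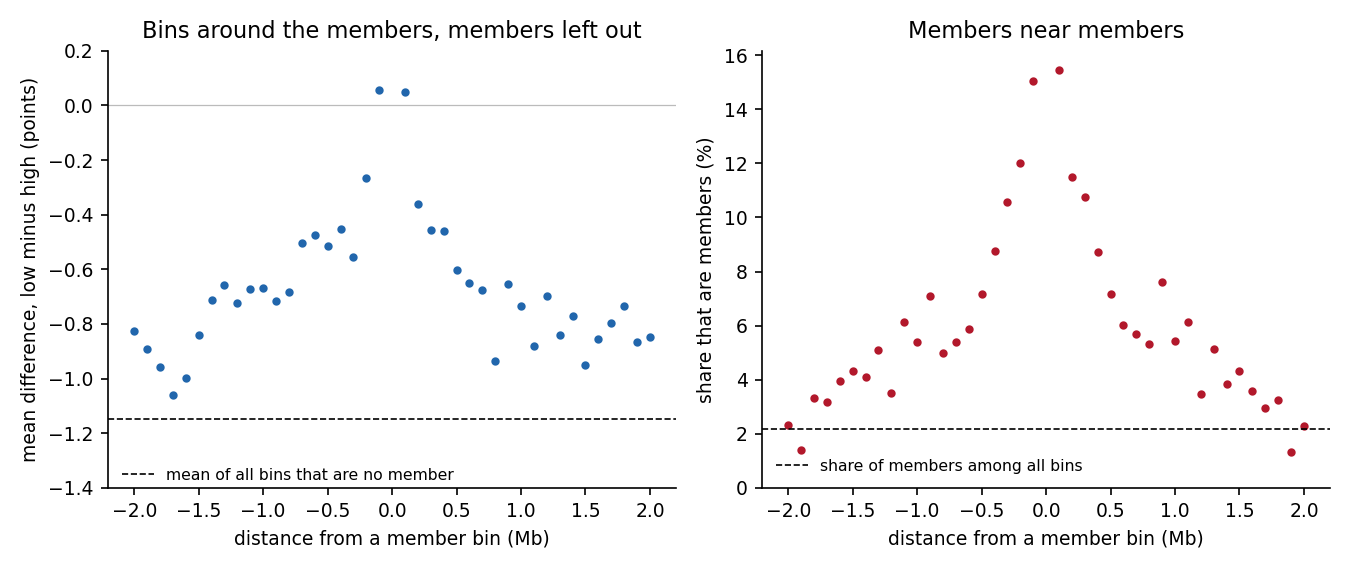
Left, mean difference in percentage points of tested bins at a given distance (Mb) from a member, with members left out; right, share of bins at that distance that are members (%). Dashed lines give the mean of all bins outside the set (−1.15 points) and the share of members among all bins (2.19%); both measures are highest next to a member and lower at greater distance.

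The longest run was on chromosome 4, from 51600001 to 52200000, with 6 adjacent members. Its bins had levels of 39.2 to 53.0% in the high-altitude pig and 45.2 to 61.0% in the low-altitude pig, and differed by 4.38 to 8.78 points. The bin lowest in the high-altitude pig, from 51900001 to 52000000, had 39.2% and 47.9%, and its difference was 8.78 ± 1.28 points (SE over 220 cytosines), and 9 of its 10 pieces of 10 kb were higher in the low-altitude pig. The run lay in a dip in methylation. The bin from 51200001 to 51300000 on its left had 85.0% and 84.8%, and the bin from 53300001 to 53400000 on its right had 80.1% and 79.8%. Between them 3 more members followed after untested bins. These started at 52500001, 52700001 and 53000001, with differences of 6.48, 7.47 and 7.70 points. Bins directly beside the dip were outside the set, so that their differences under 3 points follow from the rule. On the left, the bins from 51400001 and 51500001 differed by 1.23 and 1.21 points, and on the right, those from 53100001 and 53200001 by 2.22 and 1.94 points. A low bin farther left, from 51100001, had 58.6% in the high-altitude pig and differed by −0.941 points.

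A second run of 4 members lay on chromosome 16, from 16500001 to 16900000. Its bins had 44.7 to 56.1% in the high-altitude pig and 52.3 to 60.1% in the low-altitude pig, with differences of 4.05 to 7.55 points. The tested bins nearest to it, from 16100001 and 16200001 on the left and from 16900001 on the right, differed by 0.181, 2.47 and 2.53 points. The 3 tested bins between 15800001 and 16100000 differed by −2.77 to −0.678 points, and those from 15200001 and 15300001 by 1.60 and 1.75 points. Those from 15400001 and 15500001 differed by −0.808 and −1.14 points. Further members started at 17000001 and 17400001, with 4.27 and 7.10 points. Other bins on the right, from 17300001, 17900001 and 18100001, differed by 2.23, 2.52 and 0.820 points, and that from 18000001 by −3.49 points. The run on chromosome 2 from 56200001 to 56600000 also held 4 members. They had 39.6 to 50.1% and 46.1 to 53.6%, and differed by 3.22 to 6.58 points. A bin of like level outside the set, from 55600001, had 45.5% and 44.9% and differed by −0.523 points. Other tested bins near this run and outside the set, from 55200001 and 57700001, differed by 1.37 and 2.11 points. A further member, from 55300001, differed by 3.52 points. All 3 runs lay in stretches that were less methylated than the median bin in both pigs, and their depth was near equal, with mean ratios of low- to high-altitude reads per cytosine of 0.958, 0.949 and 0.953, against a median of 0.975 over all bins.

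**Figure D3:**
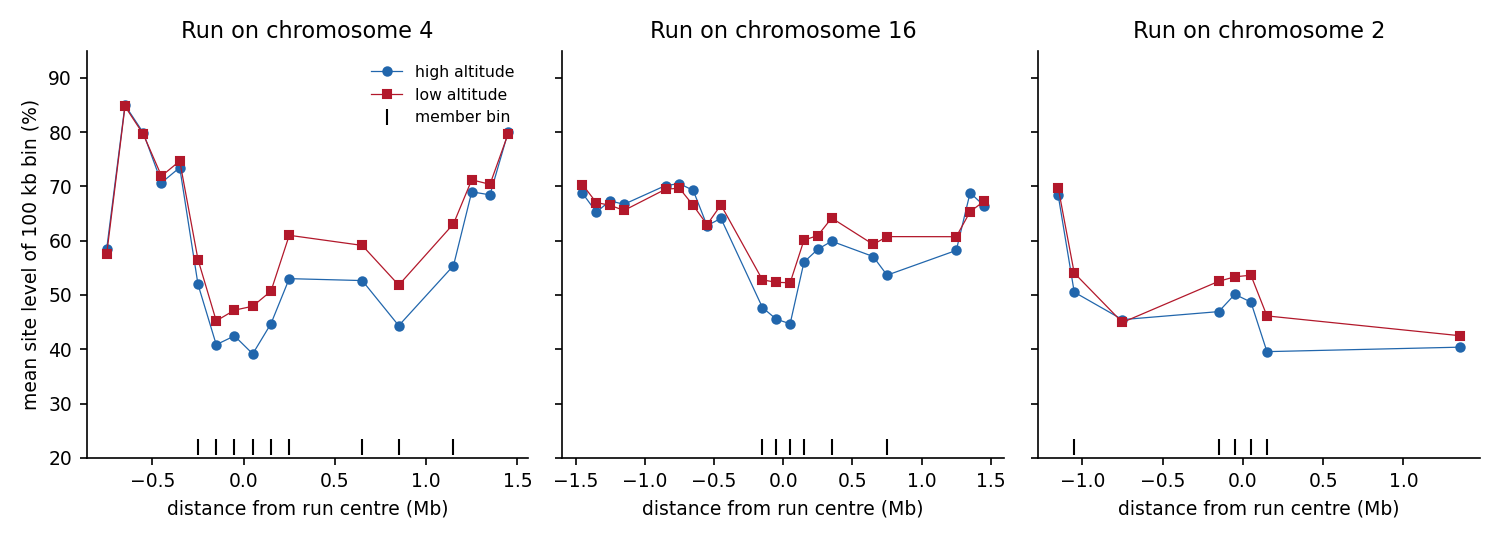
Mean site level (%) of tested 100 kb bins around the 3 longest runs of members, by distance in Mb from the centre of the run, in the high-altitude (blue circles) and the low-altitude pig (red squares); ticks mark members, and lines cross gaps of untested bins. On chromosome 4 the curves lie close together where the level is about 80 to 85% and farthest apart among the members, where the low-altitude pig is higher by up to 8.78 points.

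The least methylated members formed a run of 3 bins on chromosome 2, from 14900001 to 15200000. The bin from 15000001 had 31.0% in the highland and 39.4% in the lowland pig, and its difference was 8.33 ± 1.37 points (SE over 202 cytosines). It was higher by 8.33 points on each strand, and all 7 of its pieces were higher. The bins on its left and right had 35.3% and 41.2%, and 32.0% and 39.2%. Reads per cytosine were similar in both libraries, at 16.9 and 16.1 in the middle bin, but above the median of 10.4 and 10.1 over all bins.

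Chromosomes differed in their share of members. Chromosome 2 had 52 members among 1169 bins (4.45%) and chromosome 8 had 43 among 1209 (3.56%). The lowest shares were on chromosomes 15 (15 of 1157, 1.30%) and 13 (23 of 1741, 1.32%). Every autosome had members, and every autosome had a median difference below 0 over all its bins, from −1.33 points on chromosome 14 to −0.608 points on chromosome 18. Within 5 Mb of the outermost listed cytosine of a chromosome lay 6.63% of members and 6.47% of the other bins. Within 2 Mb it was 15 of 407 members (3.69%) and 415 of 18205 other bins (2.28%).

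Some of the largest differences lay where the libraries had unequal depth. The ratio of reads per cytosine, low over high altitude, was divided by its median over all bins. It was under 0.8 or over 1.25 in 8 of 407 members (1.97%), against 75 of 18205 other bins (0.412%), and 5 of these members were deeper in the highland and 3 in the lowland library. Read depth of a bin can follow copy number or reads of near-identical repeats that map there. Neither was measured apart from depth, and their part in these differences was not tested. The other 399 members had a median difference of 3.78 points.

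**Figure D4:**
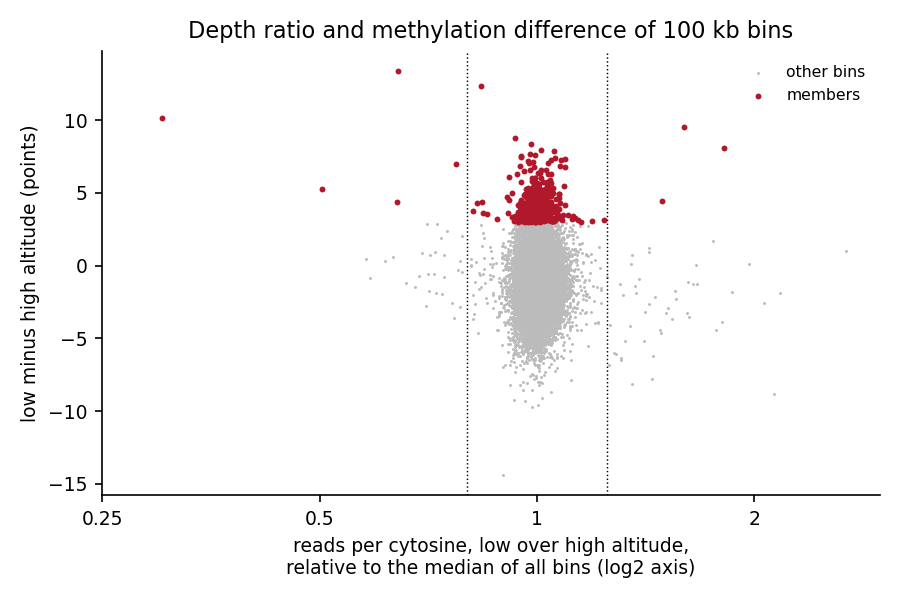
Difference of each 100 kb bin in percentage points (y axis) against its ratio of reads per cytosine, low over high altitude, relative to the median of all bins (x axis, log2 scale); dotted lines mark ratios of 0.8 and 1.25. Of the members (red) 399 lie between the lines and 8 outside, among them the bins with 13.4, 10.1, 9.53 and 8.10 points.

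The largest difference of all members was on chromosome 13, from 147800001 to 147900000. Its level was 54.0% in the highland and 67.4% in the lowland pig, and its difference was 13.4 ± 1.28 points (SE over 380 cytosines), with 17.7 and 11.1 reads per cytosine. The difference and the unequal depth fell on the same pieces. In 5 pieces of 10 kb with ratios of 0.375 to 0.710 the difference was 13.9 to 19.1 points, whereas in the other 4 pieces, with ratios of 0.866 to 1.24, it was −4.73 to 9.63 points. Restricted to the 172 cytosines whose reads were within 1.5 times of each other, the bin differed by 10.01 points.

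Another bin on chromosome 13, from 87500001 to 87600000, had more reads in the low-altitude library, 18.98 against 12.2 per cytosine. Its level was 55.9% and 65.5%, and its difference was 9.53 ± 1.05 points (SE over 388 cytosines). The gain came from a single piece, from 87550001 to 87560000, which held 243 of the cytosines. That piece had 57.7% at 10.5 reads per cytosine in the highland and 72.8% at 23.0 reads in the lowland pig, and the rest of the bin differed by 0.29 points. At the 125 cytosines of similar depth the bin differed by 2.63 points, below the threshold.

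On chromosome 8, 3 members between 70500001 and 71000000 had ratios of depth below the median. The bin from 70500001 had 30.8 reads per cytosine in the highland and 9.07 in the lowland library, with levels of 53.9% and 64.0%, and its difference was 10.1 ± 1.57 points. Only 20 of its 179 cytosines had similar depth, and over these the difference was −2.98 points. The bin from 70800001 had 50.5% and 62.8%, and its difference was 12.4 ± 1.13 points over 327 cytosines, and the bin from 70900001 had 64.0% and 71.0%, and its difference was 6.96 ± 0.882 points over 487. These 2 bins shared a block with a sharp right edge. All 10 pieces from 70840001 to 70940000 were higher by 5.47 to 19.1 points, while the 6 pieces from 70940001 to 71000000 differed by −1.41 to 3.66 points. Depth was unequal in part of the block only. The first 3 pieces had ratios of 0.976 to 1.20 and differed by 8.66 to 13.2 points, and over cytosines of similar depth the bins differed by 13.8 and 5.31 points.

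The bin with the largest difference relative to its SE was on chromosome 6, from 800001 to 900000. Its level was 45.0% and 53.1%, and its difference was 8.10 ± 0.563 points over 947 cytosines, with 15.4 and 27.3 reads per cytosine. The 2 pieces from 860001 to 880000, with 242 and 497 of the cytosines, had ratios of depth of 1.81 and 1.93 and differed by 11.2 and 9.73 points. The other 4 pieces had ratios of 0.826 to 1.33 and differed by −0.914 to 5.14 points. At the 334 cytosines of similar depth the bin differed by 5.64 points, and cytosines listed in 1 library only went the other way, with 67.8% at high and 64.0% at low altitude.

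The bin from 100600001 to 100700000 on chromosome 13 had a large gain at near-equal depth. Its level was 66.1% and 73.4%, and its difference was 7.29 ± 0.926 points over 460 cytosines, with 10.5 and 10.7 reads per cytosine. All 10 of its pieces were higher, by 0.00554 to 13.8 points, and the strands differed by 7.47 and 7.13 points.

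Cytosines that the choice of bins did not use were also higher in the low-altitude pig. These were cytosines listed in 1 library only, from the same 2 animals. A fragment can cover such a cytosine and a shared cytosine of the same bin. The measure is therefore not independent of the reads that chose the bins, and how many reads they have in common was not measured. In the members, 51987 cytosines listed at high altitude only had a mean level of 67.4%, and 45409 listed at low altitude only had 70.6%, and its difference was 3.19 ± 0.167 points (SE over cytosines). In the bins outside the set the levels were 73.3% and 72.4%, a difference of −0.865 points. Bin by bin, with at least 20 such cytosines from each library, the low-altitude cytosines were higher in 291 of 405 members (71.9%), with a median of 2.77 points. They were higher in 7313 of 18196 other bins (40.2%), with a median of −1.02 points. The 2 sets of cytosines lie at different positions of a bin, and a cytosine is listed only with at least 5 reads and a methylated call, so a difference in listing enters this measure too. The longest runs did not show it in each bin. In the run on chromosome 4 this difference was −2.37 to 19.7 points over its 6 bins, with 4 of them above 0. In the run on chromosome 16 it was −7.01 to 11.03 points, and in that on chromosome 2 from 56200001 it was 1.76 to 7.22 points. It was −16.2 points in the separate member on chromosome 4 from 53000001.

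Cytosines with more than 60 reads in a library were left out of the choice as well. There were 2736 such cytosines in 24 members, with a mean level of 39.4% at high and 50.3% at low altitude. Most of them, 1908 and 610, belonged to the 2 members on chromosome 6 between 800001 and 1000000, and the mean therefore describes those bins. Of 12 members with at least 5 such cytosines, 11 were higher in the low-altitude pig, against 45 of 156 other bins. Such cytosines can share fragments with the cytosines that chose the bins. The count is therefore no independent measure, and the bins are no replicates of a group.

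The strands of the DNA give separate reads of the same animals. Bins were chosen on the cytosines of a single strand, by the same 3 points, and then measured on the other strand, in 17100 bins with at least 75 shared cytosines on each. This choice yields other bins than the 407. On the plus strand 690 bins were chosen, with a median of 3.87 points on that strand and 1.10 points on the minus strand, where 453 (65.7%) were above 0 and 152 (22.03%) again reached 3 points. Of the 16410 bins not chosen, 29.9% were above 0 and 3.20% reached 3 points on the minus strand, with a median of −1.10 points. Chosen on the minus strand, 677 bins had 3.85 points there and 0.883 points on the plus strand, and 64.4% were above 0. Bins chosen on a strand thus kept the direction more often than other bins, but with a smaller difference than on the strand that chose them.

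**Figure D5:**
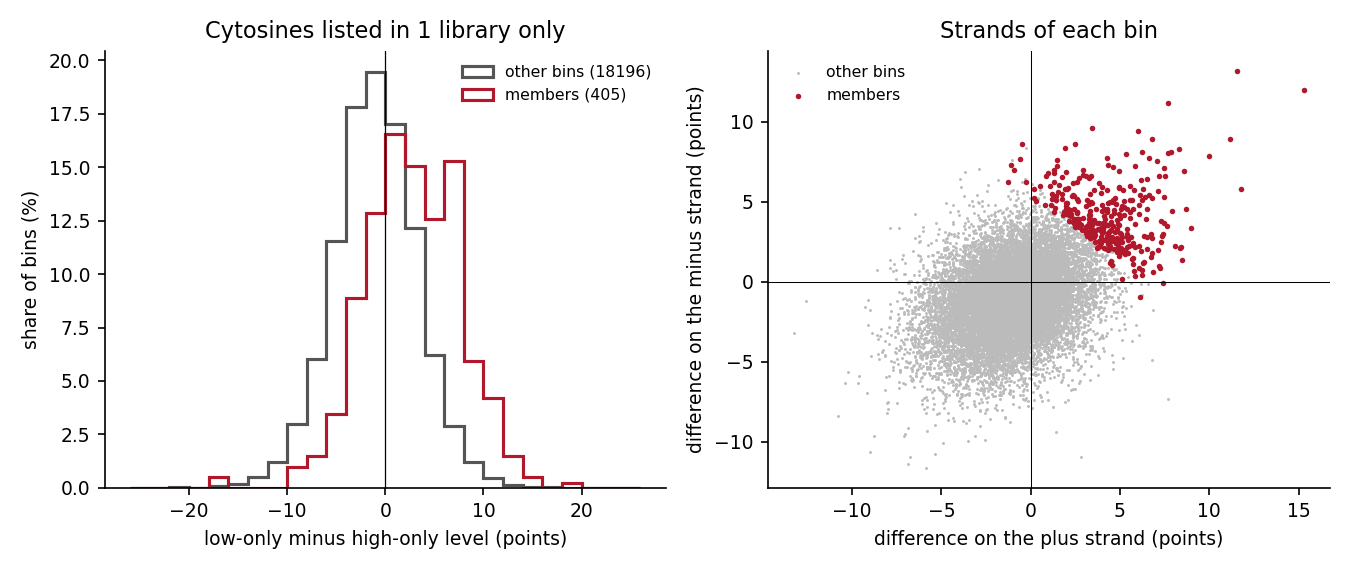
Left, level of cytosines listed at low altitude only minus that of cytosines listed at high altitude only, in percentage points, as the share of bins (%) among 405 members and 18196 other bins with at least 20 of each. Right, difference of each bin on the plus and on the minus strand, in points. The members were chosen on both strands together, so their place at the upper right follows from the choice. The shift of the left histogram from a median of −1.02 to 2.77 points rests on cytosines the choice left out, which can lie on the same fragments as those it used.

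The part of the gains that lay in single windows of 1 kb was measured next. Windows with at least 5 CpGs were tested on their summed reads by Fisher's exact test (two-sided), which compares these 2 libraries and not the altitudes. A call needed an adjusted p under 0.05 and at least 20 points between the pigs. Of 423427 windows on the autosomes 841 (0.199%) were called higher in the low-altitude pig, and 1335 (0.315%) lower. In the members 87 of 6782 windows (1.28%) were called higher and 2 lower. The choice of the bins raises the first number, and nothing is read from it. Windows called higher were found in 73 of the 407 members and in 674 of the 18205 other bins, and 334 members reached the threshold without any. Without the 826 cytosines of these windows, the median difference of the 407 members was 3.67 points instead of 3.81, and 375 members remained at 3 points or more. In the 73 members with such a window the median was 3.24 points instead of 3.90.

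The 5 called windows with the largest gain lay in bins whose highland level was 68.1 to 77.8%. On chromosome 8, from 90212001 to 90213000, 25 of 65 reads (38.5%) were methylated in the highland and 82 of 92 (89.1%) in the lowland pig over 5 CpGs. The pigs differed there by 50.7 points, with an adjusted p of the Fisher's exact test of 1.28e-07. On chromosome 17, from 13785001 to 13786000, it was 28 of 64 (43.8%) and 76 of 84 reads (90.5%), with an adjusted p of the exact test of 2.75e-06. The other 3 lay on chromosome 15 from 87425001 (22.2% and 64.7%), chromosome 9 from 138090001 (31.2% and 72.5%) and chromosome 6 from 133965001 (51.9% and 92.7%). The bin on chromosome 9 held 2 called windows and the other 4 bins 1 each. Without their called windows, the 5 bins differed by 2.86 to 3.78 points, against 3.50 to 5.09 points with them.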

How the data were processed

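Bisulfite sequencing of muscle DNA from 1 female pig per group gave 2 libraries. The submitters' processing notes name Bismark 0.12.5. Assembly, read filters and handling of duplicates are not stated in the sources used. The deposited lists give, per the file headers, read counts of methylated and unmethylated calls, a methylation level as a fraction and p-values for each cytosine. All listed cytosines are CpGs with at least 5 reads and a methylated call. The autosomal lists held 9527968 cytosines with 91619676 reads at high and 9227228 with 87482185 at low altitude, a median of 8 reads each.

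Levels were computed from the counts. The members and all lists were chosen with earlier results of these data known. Bins named are the 6 largest differences, the 6 largest over SE, the 3 longest runs, those nearest the threshold and those of extreme depth, and windows named are the 5 largest gains. Other bins were named after their values were seen. Fisher p-values were adjusted by Benjamini-Hochberg over all windows (scipy 1.17.1, statsmodels 0.14.6). Bin and window calls were also run on simulated independent reads with larger gains. Gains set at 3 points and reads that share a fragment were not simulated. Read counts of a fragment's CpGs are not independent, so window p-values and SEs are too small. Listed positions exceed those of all genes in the available Sscrofa11.1 table on most chromosomes, so that table was not used and no sequence is shown.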

Additional observations from a re-analysis of the deposited data

How the results depend on the processing

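The number of members was within 1.5 times of 407 with a ceiling of 30 reads, no ceiling, levels over reads, summed strands, shifted bins, the deposited level, cytosines of similar depth and without bins of unequal depth. It was 66 of 2748 bins with at least 10 reads per cytosine, 132 of 9676 bins with at least 300 cytosines, 84 at 5 points and 1064 at 3 points above the median difference of all bins. The median difference of the 407 members ran from 3.70 to 3.92 points under the planned settings and was 3.97 points at cytosines of similar depth. Similar totals did not mean the same bins. Of the 407, 398 stayed at 3 points or more with a ceiling of 30 reads and 366 with summed strands. At cytosines of similar depth 324 did, with levels over reads 297, and with at least 10 reads per cytosine 261. All 407 did with no ceiling and with the deposited level. With the threshold 3 points above the median, 27.3% of members had an adjacent member. The median on the plus strand of bins chosen on the minus strand was 1.35 points with at least 150 cytosines on each strand. With at least 10 reads per CpG, 45 of 1667 windows in members and 391 of 97908 windows in all were called higher. In the main setting these were 87 of 6782 and 841 of 423427. Of the named bins, that on chromosome 8 from 70500001 reversed to −2.98 points at 20 cytosines of similar depth. The bin on chromosome 6 from 800001 ran from 4.81 points with a ceiling of 30 reads to 10.3 points with at least 10 reads. That on chromosome 13 from 87500001 had 15.1 points over reads. Stricter minimums left fewer bins or windows to count. The share of members was 2.40% with at least 10 reads per cytosine and 1.36% with at least 300 cytosines, against 2.19% in the main setting. The cause of these changes was not tested. Settings by similar depth, by unequal depth and for runs were chosen after seeing the data. No paired analysis was possible because each group has 1 pig. At about 10 reads per cytosine and a median SE of 1.39 points per member, a gain of 3 points in a single bin is near the limit of what these libraries resolve.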
